A study of Mus musculus with 20 samples.

Results

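Oxidative phosphorylation is carried out by 5 protein complexes of the inner mitochondrial membrane, and the genes that encode their subunits are described here across 5 cell populations of the neonatal mouse subventricular zone. The members were chosen by gene name alone: subunit names of complexes I to IV, the Atp5 names of complex V, and the protein-coding genes of the mitochondrial genome, without entries named as pseudogenes. The rule found 97 of the 45705 genes in the table, 84 of them nuclear and 13 mitochondrial. All 97 reached 1 RPKM (reads divided by gene length and by the reads of the library) in at least 4 of the 20 libraries and were tested among 27614 genes. By complex, the nuclear members were 37 genes of complex I, 4 of complex II, 8 of complex III, 18 of complex IV and 17 of complex V. Complexes were assigned by the start of the gene name alone. Ndufa4 and Ndufa4l2 were counted under complex I for that reason, whichever complex their proteins belong to.

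Complex I takes electrons from NADH and complex II takes them from succinate. Complex III passes them to cytochrome c and complex IV to oxygen, while complexes I, III and IV pump protons and complex V uses the proton gradient to make ATP. Complexes I, III, IV and V each mix subunits from nuclear genes with subunits from the mitochondrial genome, whereas complex II is nuclear alone. Several complex IV subunits exist as a widespread isoform and an isoform restricted to muscle, lung or testis. Neural stem cells are known for a larger reliance on glycolysis than their neuronal descendants, which has made these genes a common readout in neurogenic regions.

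The cells came from Swiss Webster pups at postnatal day 5, with no transgene or treatment in any group, and were sorted by 4 surface antigens. NSC were CD133+ LeX+ CD140a- NG2-. BNAP/GRP1 were NG2+ LeX+ and GRP2/MP3 NG2+ LeX-, both without CD140a and CD133, and GRP3 were CD140a+ NG2+ LeX- and PFMP CD140a+ NG2+ LeX+, both without CD133. Pups of both sexes from a litter were pooled, so a library is a pool and not an animal, and the polyadenylated RNA was amplified before sequencing. Each population had 4 libraries, 1 from each of 4 batches, and libraries carry the name of their population and the number of their batch (NSC 3 for NSC in batch 3). The question put to these data was whether the subunit genes differed between the stem cells and the 4 progenitors, or among the progenitors.

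Libraries stood apart in ways that bear on every value below. Read totals were not in the table. Taken relative to BNAP/GRP1 1 from ratios of low values, depth was lowest in BNAP/GRP1 4 (0.0394) and highest in BNAP/GRP1 3 (1.41). The median RPKM of all genes in the table was 8.30 in BNAP/GRP1 4, so low values there are not set apart from its other genes. It was 1.61 in NSC 4, 0.977 in GRP2/MP3 4, 2.02 in GRP3 4 and at most 0.237 elsewhere. The 5 libraries of batch 3 were nearly alike over the nuclear members, with Pearson's r of log2(RPKM + 1) across the 84 genes between 0.968 and 0.996, against medians of 0.943, 0.908 and 0.923 in batches 1, 2 and 4. The labels of GRP3 and PFMP were only weakly borne out by their markers in batch 3. The summed RPKM of 5 markers of oligodendrocyte precursors was 13.7 in GRP3 3 and 14.5 in PFMP 3. It was 275 to 2897 in the other 6 libraries of these populations. Within batch 3 it was lower still in NSC 3 (2.72), BNAP/GRP1 3 (3.56) and GRP2/MP3 3 (2.91). Summed markers of NSC and astroglia (6 genes) were 150 to 268 in batch 3 and 268 to 5375 across the NSC libraries, with NSC 3 the lowest of them. The sum reached 15046 in GRP3 2, where Fabp7 alone was at 14732, and 12833 in PFMP 1. It therefore does not single out the NSC gate. Summed microglia markers (7 genes) were 745 to 854 in all 5 libraries of batch 3, and reached 4141 in GRP2/MP3 and 3873 in BNAP/GRP1. Ciliated ependyma markers (8 genes) summed to 1231 to 13285 in NSC and to 1.20 to 88.1 in the 16 progenitor libraries, so the NSC gate held signal of ependymal cells. In such bulk samples fewer cells of a type and less RNA per cell cannot be told apart.

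The mean RPKM of the nuclear members over the 20 libraries ran from 0.901 to 3773, with a median of 354, and 76 of the 84 genes were at or above 1 RPKM in all 20 libraries. The highest means were those of Cox7c, a small subunit of complex IV (3773), Atp5g3, which encodes the proton-carrying c subunit of complex V (3362), and Atp5k, its e subunit (2267). The lowest were the isoforms Cox8b (0.901), Cox8c (0.989) and Cox4i2 (2.13). By complex, the median of the gene means was 353 RPKM for complex I, 98.6 for complex II, 645 for complex III, 320 for complex IV and 509 for complex V.

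**Figure D1:**
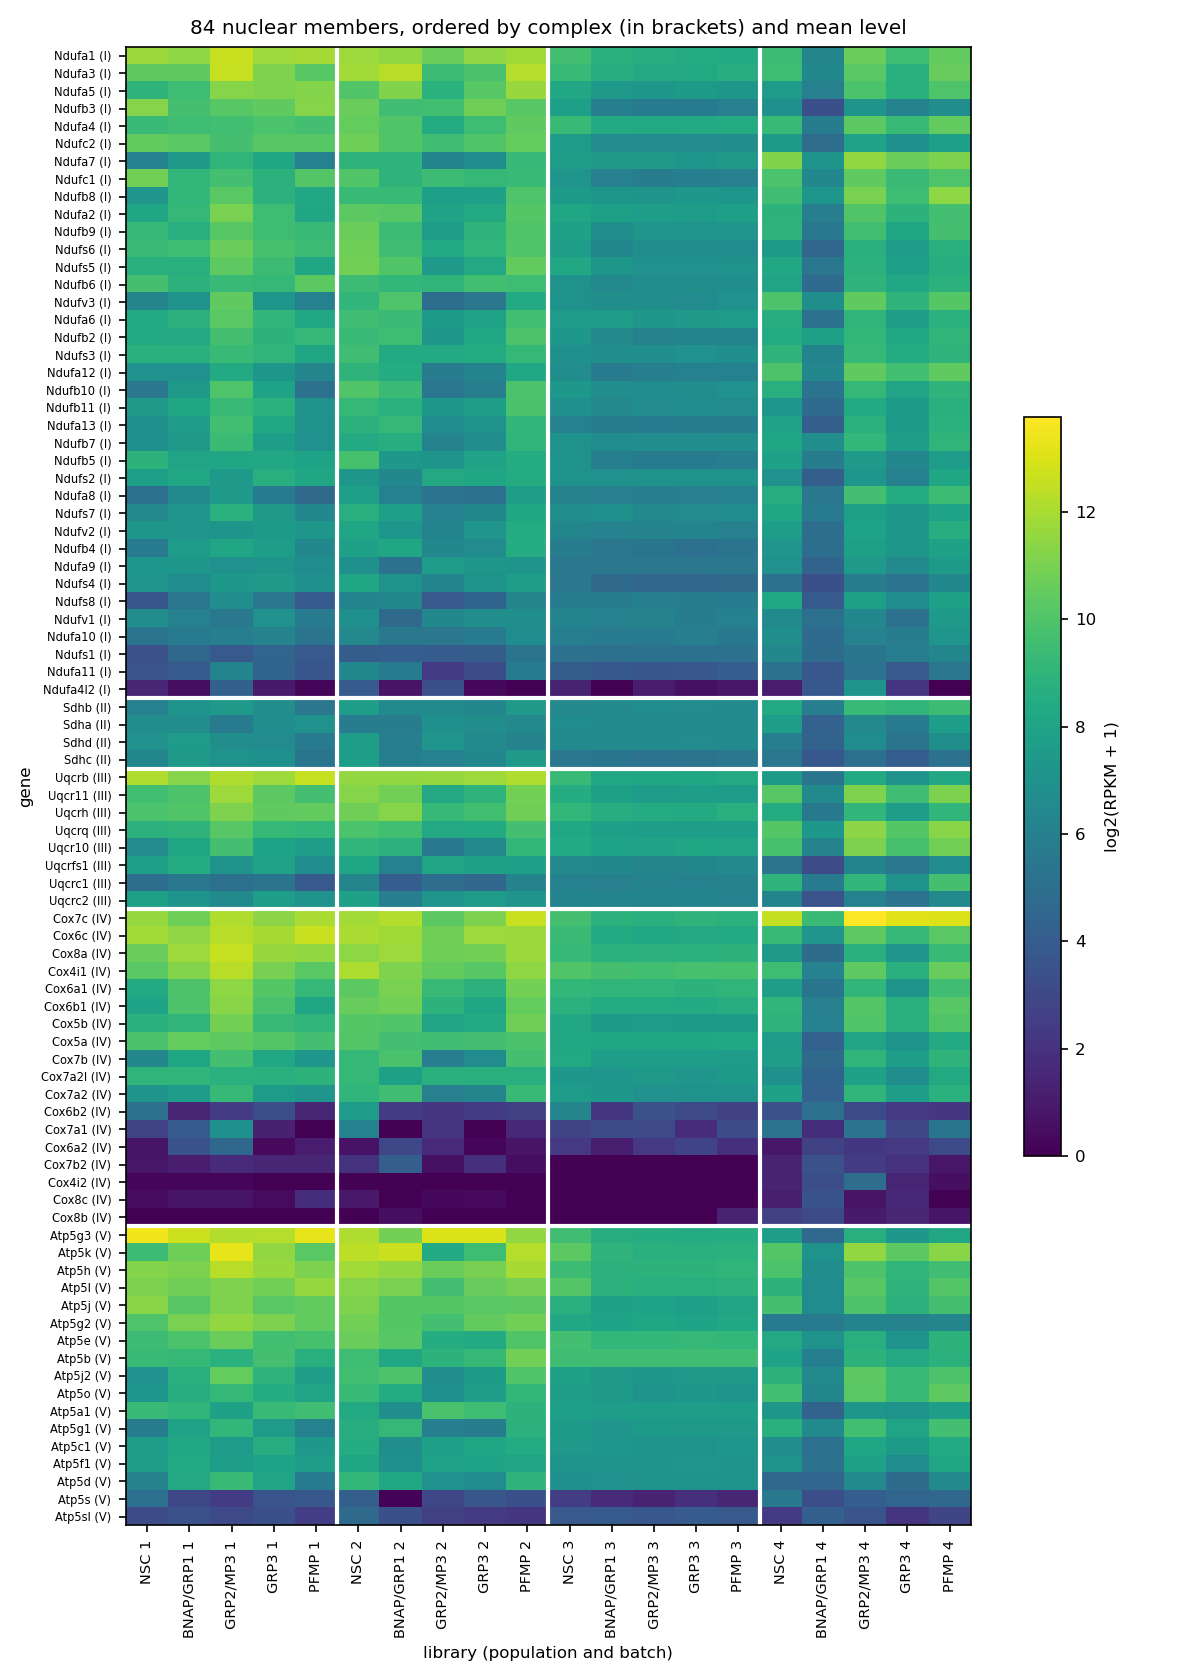
Level of each of the 84 nuclear members (rows, log2(RPKM + 1), grouped by complex and ordered by mean) in each of the 20 libraries (columns, grouped by batch). The columns of batch 3 look alike, the column of BNAP/GRP1 4 is darker (lower) than the rest of batch 4 in most rows, and the isoforms at the foot of the complex IV block are near 0 in most libraries.

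All 5 libraries of batch 3 were below all 10 libraries of batches 1 and 2 for 27 of the 84 nuclear members, among them Cox5a, Cox4i1, Cox8a, Atp5g2, Atp5g3 and Uqcrb, where 11.0% of all genes tested did so. The same held in batch 4 for 12 nuclear members, including Cox5a, Cox8a, Atp5g2, Atp5g3 and Uqcrb, against 1.66% of all genes tested. Atp5g3 shows the spread. Its RPKM was 11305, 4504, 761 and 214 in NSC 1 to 4. It was 6765, 1888, 387 and 24.98 in BNAP/GRP1, and 4712, 8652, 367 and 391 in GRP2/MP3. In each population the values of batches 3 and 4 lay below those of batches 1 and 2. Another c subunit gene, Atp5g1, had the opposite order in several populations, with its highest value in batch 4 in NSC (423), GRP2/MP3 (787), GRP3 (261) and PFMP (802). Between the batch means of the 84 genes, Pearson's r across genes was 0.993 for batches 1 and 2, and 0.786 for batches 1 and 4. Genes are not independent replicates, and these r are descriptions.

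The summed share of a library's RPKM that fell on the nuclear members was 1.01% to 1.55% in batch 3. In batch 4 the share ran from 0.319% to 5.28%, so only batch 3 was set apart by it. It was 5.55%, 5.25%, 1.55% and 3.44% in NSC 1 to 4 (3.95% ± 1.85, SD, n = 4). It was 4.30%, 3.15%, 1.07% and 0.319% in BNAP/GRP1 (2.21% ± 1.84, SD, n = 4). It was 5.22%, 4.13%, 1.01% and 5.28% in GRP2/MP3 (3.91% ± 2.00, SD, n = 4). All populations overlapped, and batch 3 was the lowest library in each of them but BNAP/GRP1. In GRP3 the share was 5.28%, 5.14%, 1.03% and 2.51% (3.49% ± 2.08, SD, n = 4). In PFMP it was 5.45%, 5.16%, 1.06% and 4.96% (4.16% ± 2.07, SD, n = 4). The highest and lowest population means, 4.16% and 2.21%, lay within the spread of the libraries, and no test was run on the shares.

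**Figure D2:**
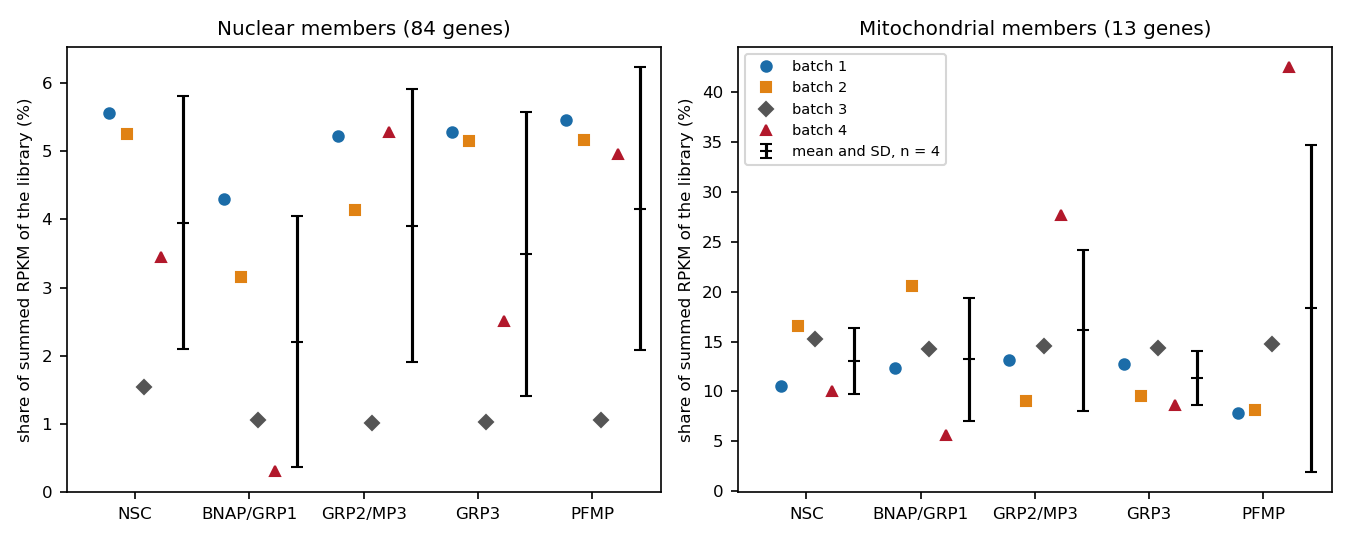
Share of the summed RPKM of each library (y axis, percent) on the 84 nuclear members (left) and the 13 mitochondrial members (right), by population, with symbols for the batch and the mean and SD of the 4 libraries beside them. Batch 3 lies between 1.01% and 1.55% on the left in all populations, and PFMP 4 reaches 42.5% on the right.

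The 13 mitochondrial genes took 5.60% to 42.5% of a library's RPKM. The share was 10.5%, 16.6%, 15.2% and 10.04% in NSC 1 to 4 (13.1% ± 3.29, SD, n = 4). In BNAP/GRP1 it was 12.4%, 20.6%, 14.3% and 5.60% (13.2% ± 6.17, SD, n = 4), and in GRP2/MP3 13.2%, 9.04%, 14.5% and 27.7% (16.1% ± 8.08, SD, n = 4). The populations overlapped throughout. In GRP3 it was 12.8%, 9.52%, 14.4% and 8.67% (11.3% ± 2.69, SD, n = 4), and in PFMP 7.89%, 8.18%, 14.8% and 42.5% (18.3% ± 16.4, SD, n = 4). PFMP 4 stood far above the other libraries of its population, and without it the mean of PFMP was 10.3%, below the 13.1% of NSC rather than the highest of the populations. In PFMP 4, mt-Atp8 made up 76.0% of the mitochondrial RPKM. Without mt-Atp8 the 13 genes would have taken 2.43% to 15.7% of a library, with 10.2% in PFMP 4.

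Compared with NSC, 1 of the 97 members passed the test in any population. In BNAP/GRP1 0 of 97 members passed (background: 0.760% of all genes tested), in GRP2/MP3 0 of 97 (background: 1.12%), in GRP3 0 of 97 (background: 1.05%) and in PFMP 1 of 97 (background: 1.14%). For the mean of the 4 progenitors it was 1 of 97 (background: 1.98%). The test was limma's moderated test on log2(RPKM + 1) with Benjamini-Hochberg adjustment over 27614 genes, and an adjusted p under 0.05 counted as passed. The model held no batch term, so it ignored the pairing of libraries by batch. Counts with the batch in the model are given further below. The 1 gene was Cox6b2 in both cases, and it was lower than in NSC. These counts are close to or below the background, so they do not set the members apart from the other genes. At an unadjusted p under 0.05, the members were Cox6b2 and Atp5s in BNAP/GRP1, Cox6b2 in GRP2/MP3, Cox6b2 and Cox7a1 in GRP3, Cox6b2 in PFMP, and Cox6b2 and Atp5s for the mean of the progenitors, all lower than in NSC. The shares of all genes tested under that limit were 5.90%, 5.79%, 5.62%, 5.88% and 6.87% in these 5 comparisons, so 1 or 2 of 97 members lay below the background. None of the 13 mitochondrial genes was under 0.05 before adjustment in these 5 comparisons.

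Cox6b2 encodes subunit VIb of complex IV in its testis form. The gene lies on chromosome 7 of GRCm38 (chr7:4751792-4753094, minus strand). Its RPKM was 33.2, 187, 75.5 and 9.76 in NSC 1 to 4. It was 1.79, 4.34, 3.55 and 31.4 in BNAP/GRP1 and 4.53, 3.29, 9.80 and 7.68 in GRP2/MP3. The NSC library was the highest of its batch in batches 1 to 3, and in batch 4 it was second to BNAP/GRP1 4. In GRP3 the RPKM was 8.999, 4.43, 7.26 and 3.88, and in PFMP 1.81, 5.18, 5.65 and 3.51. NSC and PFMP did not overlap, and GRP3 was below all NSC libraries as well, whereas NSC 4 (9.76) lay under 1 GRP2/MP3 library (9.80). The difference from NSC on the log2(RPKM + 1) scale, which understates the change of low genes, was -3.33 (SE 0.785) in PFMP (adjusted p = 0.037, limma). For the mean of the 4 progenitors it was -2.94 (SE 0.620, adjusted p = 0.01, limma). The other progenitors had nearly the same difference without passing the threshold: -2.81 in BNAP/GRP1 (adjusted p = 0.148), -2.80 in GRP2/MP3 (adjusted p = 0.117) and -2.81 in GRP3 (adjusted p = 0.123), all by limma. Cox6b2 differed by at most 0.52 between any 2 progenitors on that scale, with an SE of 0.785.

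Cox6b2 lost its calls when some libraries were left out, while its difference stayed below -2 in both comparisons. In PFMP it was -3.48 to -3.07 with any 1 PFMP library left out (adjusted p 0.0661 to 0.151), with a larger SE (0.854 to 0.868) than with all libraries. It was -3.49 without NSC 1 (adjusted p = 0.0767), -2.67 without NSC 2 (0.244), -3.10 without NSC 3 (0.0744) and -4.04 without NSC 4, where the call was kept (0.00792), by limma. For the mean of the 4 progenitors the call ended without NSC 2 (-2.28, adjusted p = 0.15), batch 1 (-2.95, 0.146), batch 2 (-2.20, 0.541) or batch 3 (-2.78, 0.082). Only without NSC 2 or its batch was the difference for the mean closer to 0 than -2.5. Without batch 4 or without NSC 4 alone, Cox6b2 passed in each of the 4 progenitors. With the batch as a replicate block the call in PFMP stood at an adjusted p of 0.0184 and that for the mean at 0.00508. Leaving out BNAP/GRP1 4 turned the BNAP/GRP1 comparison into a call (-3.56, adjusted p = 0.0128, limma).

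The widespread isoform Cox6b1 (chr7:30616861-30626151, minus strand) was at 253, 1542, 449 and 544 RPKM in NSC 1 to 4. The population means of the progenitors were 832 ± 589 (SD, n = 4) for PFMP, 489 ± 286 for GRP3, 1116 ± 1003 for GRP2/MP3 and 810 ± 789 for BNAP/GRP1, against 697 ± 576 for NSC. All populations overlapped, and the difference from NSC lay between -0.34 (GRP3) and 0.58 (GRP2/MP3) on the log2 scale. In each of the 20 libraries the widespread isoform had the higher RPKM, also in NSC 2 (1542 against 187). The longest run of identical bases shared by transcripts of the 2 genes was 14. The promoter bases of both are shown because Cox6b2 is the member that carries the only call. They are the 250 bases before the annotated start, from RefSeq on GRCm38.p6 (chr7:4753095-4753344 and chr7:30626115-30626364, both minus strand, written 5′ to 3′), with the motifs searched in capitals.
Cox6b2: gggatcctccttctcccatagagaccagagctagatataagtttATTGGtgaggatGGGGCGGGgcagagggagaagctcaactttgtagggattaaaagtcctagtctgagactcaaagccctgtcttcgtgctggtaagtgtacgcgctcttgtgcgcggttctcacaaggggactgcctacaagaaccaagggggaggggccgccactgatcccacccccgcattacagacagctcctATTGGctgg
Cox6b1: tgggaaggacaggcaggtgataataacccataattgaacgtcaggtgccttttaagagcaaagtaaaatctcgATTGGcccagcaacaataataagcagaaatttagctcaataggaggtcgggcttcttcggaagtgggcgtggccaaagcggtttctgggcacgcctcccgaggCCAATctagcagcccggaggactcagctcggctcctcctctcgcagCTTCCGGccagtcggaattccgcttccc
The capitals mark CCAAT and GGGGCGGG (the GC box of SP1) in Cox6b2, and CCAAT and CCGGAAG (the core of ETS factors) in Cox6b1, on either strand. The RefSeq start of Cox6b1 lies inside the gene span given above. The end of its window, with the CCGGAAG match, therefore overlaps that span.

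The NSC libraries, where Cox6b2 was higher, also held the ependymal signal. Summed ciliated ependyma markers were 3051, 13285, 1231 and 4674 RPKM in NSC 1 to 4 and at most 88.1 in a progenitor library. For these 8 genes, 7 were lower in each progenitor by the same test, and none was at 0 in all libraries of a population. The order of the NSC libraries differed between the markers (NSC 2, NSC 4, NSC 1, NSC 3) and Cox6b2 (NSC 2, NSC 3, NSC 1, NSC 4). The part of ependymal cells in the level of Cox6b2 was not tested.

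**Figure D3:**
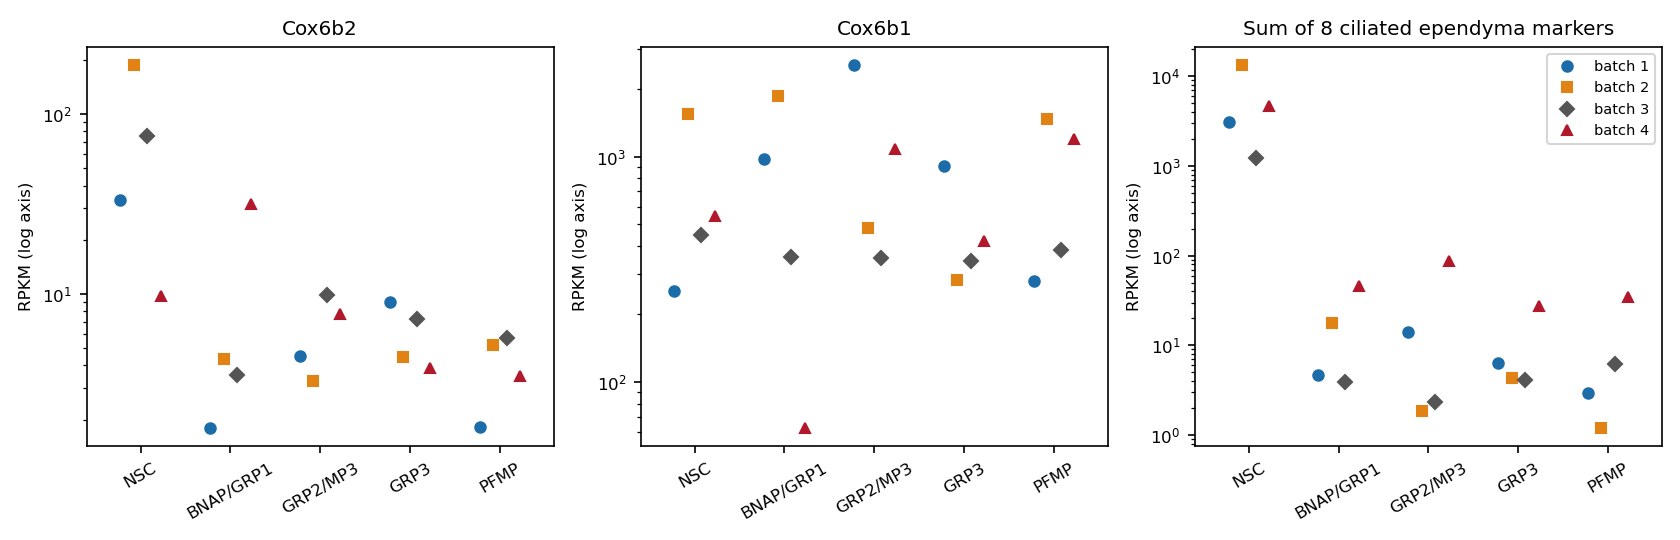
RPKM of Cox6b2, Cox6b1 and the sum of 8 ciliated ependyma markers (log axes) in each library, by population and with symbols for the batch. Cox6b2 is highest in NSC in batches 1 to 3 and reaches 31.4 in BNAP/GRP1 4, Cox6b1 overlaps between populations, and the marker sum is at least 1231 in NSC and at most 88.1 elsewhere.

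The 66 nuclear members with a promoter entry in RefSeq (GRCm38.p6, 250 bases before to 50 after the start) were searched on both strands for motifs of factors known for nuclear respiratory genes. CCGGAAG was found in 15 of the 66 (22.7%) and in 8.86% of 32851 promoters of the same length. GCGCATGC, the core of NRF1 sites, was found in 10 (15.2%) against 2.71%, and AAGATGGC, a YY1 core, in 8 (12.1%) against 2.75%. GGGGCGGG was in 17 (25.8%) against 16.5%, and CCAAT in 29 (43.9%) against 37.4%. Cox6b2 held GGGGCGGG and CCAAT only. Atp5k, a member of high mean, held CCGGAAG and GCGCATGC. These matches are descriptions of letters in a window, and none of the 5 motifs is contained in another.

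Atp5s and Ndufb5 were the only nuclear members for which the NSC library exceeded all 4 progenitor libraries in each of the 4 batches. That is 2 of 84 members against 3.28% of all genes tested, so it does not stand out from the background. Atp5s encodes factor B, a protein associated with complex V. Its RPKM was 32.2, 16.7, 4.64 and 46.2 in NSC 1 to 4, and 7.02, 0.118, 2.21 and 9.05 in BNAP/GRP1. In the other 3 progenitors it was 1.47 to 23.3. Ndufb5, an accessory subunit of complex I, had 487, 869, 131 and 234 in NSC 1 to 4 and 260.5, 165, 60.1 and 53.9 in BNAP/GRP1. Across all 16 progenitor libraries Ndufb5 ran from 50.5 to 367.

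Neither gene passed the test in the model without the batch, where the adjusted p for the mean of the progenitors was 0.694 for Atp5s (-1.46) and 0.776 for Ndufb5 (-1.30). With the batch number as a replicate block, Atp5s passed in BNAP/GRP1 (-2.27, SE 0.507, adjusted p = 0.0183, limma), so 1 of 97 members was called there where 2.09% of all genes were. For the mean of the 4 progenitors 3 of 97 members passed under the block: Cox6b2, Ndufb5 (adjusted p = 0.0391) and Atp5s (adjusted p = 0.0441), with a background of 4.36%. In PFMP under the block it was 1 of 97, Cox6b2, with a background of 2.79%. With batch 3 left out as well, neither Ndufb5 (adjusted p = 0.24) nor Atp5s (0.0982) passed for the mean, while Atp5s did in BNAP/GRP1 (0.0363).

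Within complexes, the medians of the differences from NSC lay within about 1 on the log2 scale and no complex was set apart by calls. In BNAP/GRP1, 75 of the 84 nuclear members were below NSC and the median was -0.77, while the median of all genes was 0.38. By complex these medians were -0.82 for I, -0.64 for II, -0.93 for III, -0.53 for IV and -0.76 for V. This rested largely on 1 library, since without BNAP/GRP1 4 the nuclear median was -0.14 and that of all genes -0.20. In GRP2/MP3 the nuclear median was -0.05 (all genes -0.08), in GRP3 -0.37 (0.05), in PFMP 0.06 (-0.20) and for the mean of the progenitors -0.30 (0.07). Quantile normalization took the median of all genes in BNAP/GRP1 from 0.38 to 0.03, the largest move among the 4 other scalings. The nuclear median stayed below 0 in BNAP/GRP1 and GRP3 under all 4. In GRP2/MP3 it turned to 0.05 under median-of-ratios scaling, and in PFMP to -0.06 when every library was set to the same RPKM total.

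**Figure D4:**
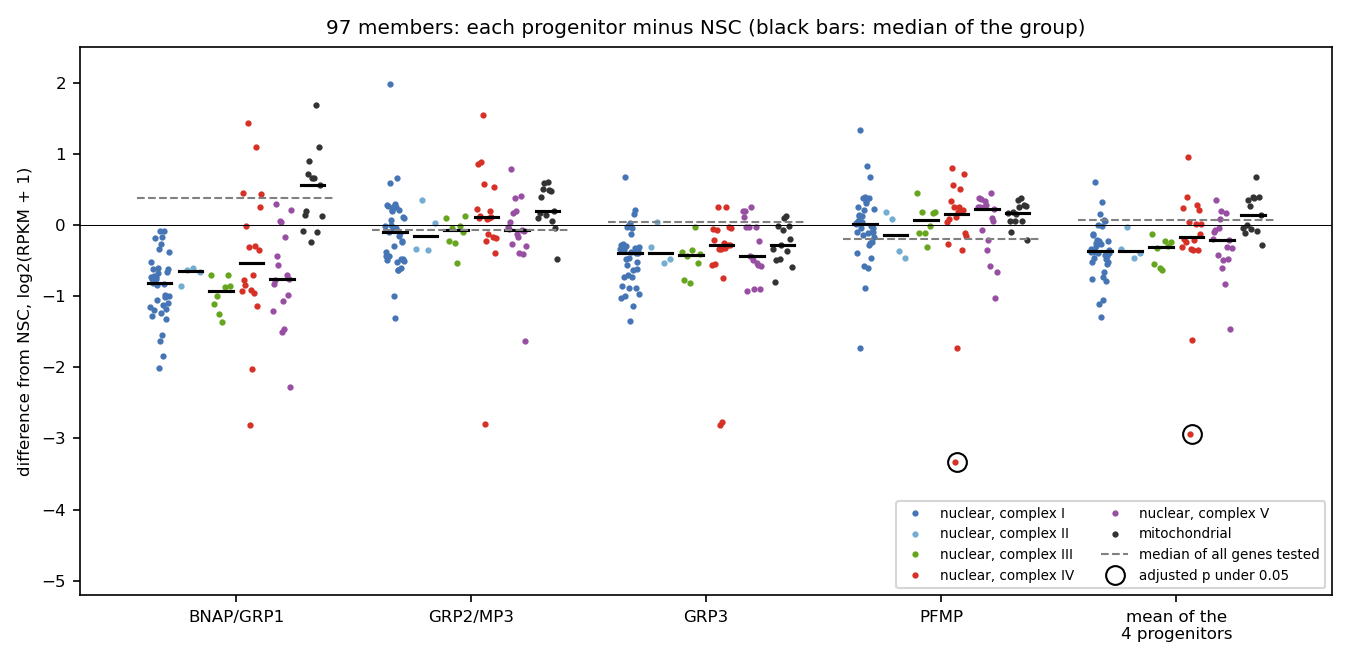
Difference from NSC (y axis, log2(RPKM + 1)) of the 97 members in each progenitor and in their mean, by complex and genome, with black bars at the median of each group and dashed lines at the median of all genes tested. Circles mark Cox6b2 in PFMP (-3.33) and in the mean (-2.94), the calls at an adjusted p under 0.05.

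Within a batch, the rank of NSC among its 5 libraries changed from batch to batch. NSC was the highest library for 9 of 84 nuclear members in batch 1 (background: 20.4% of all genes tested), 42 in batch 2 (background: 20.1%), 63 in batch 3 (background: 29.1%) and 6 in batch 4 (background: 11.8%). NSC was the lowest for 29 members in batch 1 (34.5%, beside 21.1% of all genes tested), 2 in batch 2 (2.38%, beside 14.6%), 3 in batch 3 (3.57%, beside 14.0%) and 2 in batch 4 (2.38%, beside 13.5%). The share of nuclear members with NSC on top was thus 75% in batch 3 and 7.14% in batch 4. Since each of these counts compares single libraries, no test was made of it. The median difference of NSC 3 from the mean of the progenitors of its batch was 0.31 on the log2 scale, against 0 for all genes tested. For NSC 1 it was -0.43, for NSC 2 0.89 and for NSC 4 0.34.

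None of 6 core subunits of the complexes passed in a comparison with NSC, and their populations overlapped. Ndufs1, an iron-sulfur subunit of complex I, was at 35.8 ± 33.2 RPKM in NSC and between 25.4 and 40.9 in the means of the progenitors. Sdha, the flavoprotein of complex II, was at 119 ± 63.9 in NSC and between 70.7 and 129. Uqcrc1, a core protein of complex III, was at 168 ± 221 in NSC and between 43.4 and 246, and its values of 498, 543 and 831 in NSC 4, GRP2/MP3 4 and PFMP 4 were above those of every other library. Cox5a of complex IV was at 618 ± 439 in NSC and between 572 and 657. The catalytic head of complex V is built from Atp5a1 and Atp5b, which were at 341 ± 221 and 591 ± 231 in NSC, between 216 and 431 and between 431 and 867 in the progenitors. All errors are SD over n = 4 libraries, and the adjusted p of these 6 genes was at least 0.866 in each comparison with NSC by limma. The 2 largest differences above 0 in PFMP were those of Ndufa5 (1.34, SE 1.20) and Ndufb8 (0.82, SE 1.02), both accessory subunits of complex I, with an adjusted p of 1.

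None of the restricted isoforms other than Cox6b2 passed in a comparison with NSC. Ndufa4l2, a relative of Ndufa4 that is known from hypoxic cells and pericytes, was at 18.4, 9.18, 1.12 and 139.6 RPKM in GRP2/MP3 1 to 4. In NSC it was 1.78, 14.5, 1.61 and 1.18. The other progenitors were at or below 3.22, apart from 12.99 in BNAP/GRP1 4. GRP2/MP3 was above PFMP and above GRP3 in 4 of 4 batches (3.70, SE 1.02, unadjusted p = 0.00165, and 2.97, unadjusted p = 0.00859, limma), but the adjusted p was 1 in both. Its summed pericyte markers (8 genes, none at 0 in all libraries of a population) were 514, 452, 124 and 7341 in GRP2/MP3 1 to 4, and 4.16 to 198 in the other 16 libraries. Among them Rgs5, picked here after its values were seen, was at 120, 155, 0.251 and 6493 in GRP2/MP3. In batch 3 the sum was nearly all Anpep, at 115 to 130.1 in the 5 libraries, and the other 7 markers summed to 0.297 to 1.28 there, with 0.953 in GRP2/MP3 3. Their part in the level of Ndufa4l2 was not tested.

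Cox4i2, the lung form of subunit IV, was at 29.5 in GRP2/MP3 4, the same library, at 8.76 in BNAP/GRP1 4 and at most 1.68 elsewhere, and was listed at 0 in 11 libraries. Cox7a1, the heart and muscle form of subunit VIIa, was at 6.16, 65.0, 6.20 and 37.5 in NSC and at 122, 3.31, 7.20 and 37.5 in GRP2/MP3. It was lower in GRP3 (1.36, 0, 2.34 and 6.68), where the difference from NSC was -2.77 (SE 1.19, adjusted p = 0.699, limma). Cox6a2, the heart and muscle form of subunit VIa, was above NSC in 4 of 4 batches in GRP2/MP3, with 23.9, 2.08, 3.86 and 3.74 against 0.688, 0.593, 3.80 and 0.858 (1.55, adjusted p = 0.967, limma). Summed markers of striated muscle were at 0.369 to 69.4, the highest in BNAP/GRP1 4. The median RPKM of all genes was 8.30 in that library. Its values of Cox4i2, Cox8b and the muscle markers Myh7 and Actn2 lay near that median and are not set apart from its other genes. The muscle markers Tnnt2 (26.0) and Myl2 (20.6) lay above the median in BNAP/GRP1 4, and Ckm (5.24) lay below it. Cox7b2 and Cox8c, the testis forms, were at or below 16.7 and 9.89, and Cox8b, a muscle form, at or below 7.48 and listed at 0 in 13 libraries. The widespread partners Cox4i1, Cox6a1, Cox7a2, Cox7b, Cox8a and Ndufa4 had means of 275 to 1726 RPKM over the 20 libraries, and none of them passed in a comparison with NSC.

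The 4 progenitors were also compared with each other, where 0 of 97 members and 0 of all 27614 genes passed in any of the 6 comparisons, by limma. At an unadjusted p under 0.05 there were 84 to 1355 of all genes in a comparison. GRP2/MP3 took part in each comparison with a member under that limit, and there the share of all genes was 1.20% against BNAP/GRP1, 1.69% against GRP3 and 1.66% against PFMP. The members under it were Ndufa4l2, in the 3 comparisons with GRP2/MP3, and Cox7a1, higher in GRP2/MP3 than in GRP3 (2.86, unadjusted p = 0.0261, adjusted p = 1). The median difference of the nuclear members between BNAP/GRP1 and PFMP was -0.87 beside 0.53 for all genes, and without BNAP/GRP1 4 it was -0.21 beside 0. Between GRP3 and PFMP, the 2 populations with CD140a, it was -0.44 beside 0.23 for all genes. There 77 of 84 nuclear and 13 of 13 mitochondrial members were lower in GRP3, none of them past an unadjusted p of 0.05. Without PFMP 2 the nuclear median was -0.14, with 55 of 84 lower, and without batch 4 the mitochondrial median was -0.06, with 9 of 13 lower.

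The mitochondrial genes encode 7 subunits of complex I, 1 of complex III, 3 of complex IV and 2 of complex V. Their mean RPKM ran from 784 for mt-Nd5 to 91043 for mt-Atp8. mt-Nd5 was the lowest of the 13 in 15 libraries, mt-Nd3 in NSC 4, GRP2/MP3 4, GRP3 4 and PFMP 4, and mt-Nd4 in BNAP/GRP1 4. The ratio of the highest to the lowest gene was 15.8 in BNAP/GRP1 4 and 59.2 to 703 in the other 19 libraries. BNAP/GRP1 4 also held the largest sum over the mitochondrial transfer RNA genes, at 20197 RPKM with 22 of 22 genes above 0, against 0 to 7054 elsewhere. Differences from NSC ran from -0.24 to 1.69 in BNAP/GRP1 (median 0.56, all genes 0.38) and from -0.48 to 0.61 in GRP2/MP3 (median 0.20, all genes -0.08). They ran from -0.80 to 0.12 in GRP3 (median -0.28, all genes 0.05) and from -0.21 to 0.38 in PFMP (median 0.17, all genes -0.20). With batch 4 left out, the medians in GRP2/MP3 and PFMP turned to -0.29 and -0.52, and quantile normalization turned that in PFMP to -0.20.

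mt-Atp8 and mt-Atp6 encode the subunits of complex V that come from mitochondria and overlap by 43 bases, and their balance followed the batch. The ratio of their RPKM was 0.419 to 2.08 in the 10 libraries of batches 1 and 2 and 6.75 to 9.02 in the 10 libraries of batches 3 and 4, with no overlap. In NSC it was 0.518, 2.08, 6.75 and 7.44. In PFMP it was 0.427, 1.35, 8.51 and 8.07. mt-Atp8 is 204 bases long and mt-Atp6 681, and the gene lengths behind the RPKM values are not given in the sources used here. The differences of mt-Atp8 and mt-Atp6 between populations did not pass in any comparison. mt-Nd3, a complex I subunit, was at 332 to 5238 in batch 4 and 8893 to 57976 in batches 1 and 2. mt-Co2, which takes electrons from cytochrome c in complex IV, was at 1201 to 5045 in batch 4 and 18398 to 113631 in batches 1 and 2. In batch 4 these 2 of the 13 lay below all libraries of batches 1 and 2, and none above (1.66% of all genes tested lay below). In batch 3 mt-Nd1, mt-Co2, mt-Nd3 and mt-Cytb lay below (11.0% of all genes tested) and mt-Co1 and mt-Nd5 above (10.5%). For mt-Co1 this did not hold once the nuclear copy described next was added.

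The level of mt-Co1, the catalytic subunit of complex IV, is uncertain because of a nuclear copy. Gm29216, annotated as an unprocessed pseudogene on chromosome 1 (chr1:24615706-24616197, minus strand, GRCm38), is 492 bases long and matches bases 1054 to 1545 of mt-Co1, with 98.8% identity. All 6 differences lie near its start. The first 60 bases of that stretch are shown because they hold every difference, which are in capitals. Positions count from 1 at the first base of mt-Co1: T1056A, C1057T, A1059G, A1060G, C1062A and A1066T, with the base of mt-Co1 first.
mt-Co1: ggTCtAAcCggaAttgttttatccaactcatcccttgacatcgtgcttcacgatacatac
Gm29216: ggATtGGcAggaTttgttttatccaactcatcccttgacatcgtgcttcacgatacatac

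Gm29216 was listed at 872 to 118377 RPKM and above mt-Co1 in 19 of 20 libraries, with a median ratio of 4.61. mt-Co1 itself was at 1346 to 9339. Adding the copy to mt-Co1 by length raised it to 1.11 to 9.95 times the level of mt-Co1 alone, with a median of 2.47. The combined level was 6293, 37309, 14501 and 4801 in NSC, and 2894 to 41911 in the progenitor libraries, so the populations overlapped. In batch 3 the combined level was 14346 to 15327, within the 5408 to 41911 of batches 1 and 2. Its differences from NSC were 0.36 for BNAP/GRP1 and 0.31 for GRP2/MP3, while GRP3 had -0.42 and PFMP -0.04, each within its SE of 1.35. Another 6 copies lie in the same stretch of chromosome 1, of mt-Co2, mt-Atp6, mt-Co3, mt-Nd3, mt-Nd4l and mt-Nd4. Of these, 5 were identical to the mitochondrial gene over their whole length, and their RPKM was at most 0.00184 of it, with the exceptions of the copies of mt-Nd3 and mt-Nd4. Those reached 1127 and 113 RPKM in BNAP/GRP1 4.

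**Figure D5:**
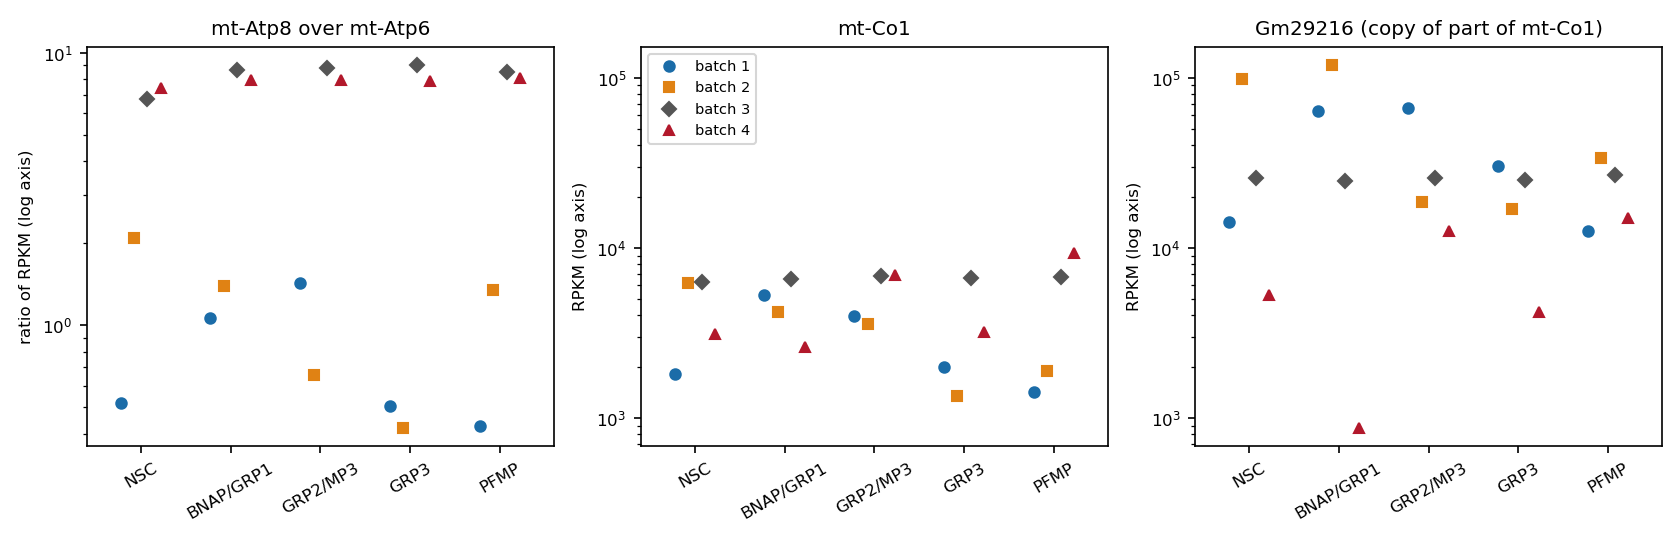
Ratio of mt-Atp8 to mt-Atp6 RPKM, and RPKM of mt-Co1 and of its nuclear copy Gm29216 (log axes), in each library by population, with symbols for the batch. The ratio is 6.75 or more in batches 3 and 4 and 2.08 or less in batches 1 and 2, and Gm29216 exceeds mt-Co1 in 19 of 20 libraries.

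The rest of mitochondrial energy metabolism and glycolysis was taken as 5 gene lists. Of 45 assembly factors of the complexes, 8 electron carriers and related genes, 15 genes of mitochondrial gene expression, 13 of the citric acid cycle and 17 of glycolysis, 0 passed in any of the 5 comparisons with NSC, by limma. At an unadjusted p under 0.05 for the mean of the 4 progenitors, 5 assembly factors were lower and 0 higher, 1 electron carrier gene was lower, and 1 gene of mitochondrial gene expression was higher and 1 lower, beside 6.87% of all genes tested in either direction. For the citric acid cycle and glycolysis the numbers were 0 and 0. The genes named next were picked for their low adjusted p after the values were seen. They were Nubpl, which delivers iron-sulfur clusters to complex I (-2.19, adjusted p = 0.0663), Ndufaf3, another complex I assembly factor (-2.31, 0.0688), and Etfa, which feeds electrons from fatty acid oxidation (-2.35, 0.0954). The median differences for the mean of the progenitors were -0.08 for the assembly factors, -0.45 for the electron carriers, 0.14 for mitochondrial gene expression, -0.59 for the citric acid cycle and -0.03 for glycolysis, beside 0.07 for all genes.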

How the data were processed

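The authors deposited RPKM values, reads divided by gene length and by the mapped reads of the library. Per the labels' processing notes, FastQC 0.11.9, cutadapt 3.4, STAR 2.6.1, Salmon 1.9.0, DESeq2 1.26.0 and GRCm38 were used. Values were taken as log2(RPKM + 1), a pseudocount of 1, and genes that reached 1 RPKM in 4 or more of the 20 libraries were tested in R 4.3.3 with limma 3.58.1 (trended prior, 1 mean per population, no batch term, all libraries). Benjamini-Hochberg adjustment ran over 27614 genes, with 0.05 as the threshold. Positions and transcripts came from GENCODE vM21. No library was left out, and 26 empty columns were not used. Since the table holds no counts, no counting interval is given, and a value of 0 does not show absence. The authors' comparisons were not used.

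Named are members past the threshold, the 13 mitochondrial genes, restricted isoforms with their partners, the c subunit genes, the 2 largest rises and falls per progenitor, the 3 highest and lowest means, 6 core subunits, and members whose call changed under an alternative. The members and lists were chosen with earlier results of these data known. The labels give the batch, which pairs the libraries: after population means were removed, libraries of a batch correlated with a median of 0.337 (batch 1), 0.262 (batch 2), 0.769 (batch 3) and 0.581 (batch 4), and libraries of different batches with -0.254. The alternatives were other pseudocounts, filters and scalings, the replicate block, a prior without trend, only the compared populations, and libraries or batches left out. Steps were tested on simulated data. Figures used Python 3.11.15 and matplotlib 3.10.9.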

Additional observations from a re-analysis of the deposited data

Results flagged for a closer look

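Dixon's test at the 95% level, over the 4 libraries of a population (log2(RPKM + 1) for genes, percent for shares), was applied to the 43 named members and to both shares, 225 groups in all. It singled out 17 libraries' values, and chance alone gives about 1 in 20 groups. Of these, 9 were the batch 4 libraries of 2 lowly expressed isoforms: Cox4i2 was far above the rest in NSC 4 (1.61 RPKM), BNAP/GRP1 4 (8.76), GRP2/MP3 4 (29.5), GRP3 4 (1.68) and PFMP 4 (0.492), and Cox8b in NSC 4 (4.999), BNAP/GRP1 4 (7.48), GRP2/MP3 4 (1.02) and GRP3 4 (1.79). The median RPKM of all genes was 1.61, 8.30, 0.977 and 2.02 in NSC 4, BNAP/GRP1 4, GRP2/MP3 4 and GRP3 4. It was at most 0.237 in batches 1 to 3. Only Cox4i2 in GRP2/MP3 4 and PFMP 4 and Cox8b in NSC 4 lay well above the median of their library. The other values lay near it and are not particular to these isoforms.

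The other restricted isoforms with a library far above its group were Cox6a2 in NSC 3 (3.80 RPKM), Cox8c in PFMP 1 (2.49) and Ndufa4l2 in NSC 2 (14.5). Among the widespread genes, Cox6a1 stood high in GRP2/MP3 1 (2803), Ndufa4 in NSC 2 (1467) and Atp5b in GRP2/MP3 3 (741). mt-Nd4l was far below its group in BNAP/GRP1 1 (1879). The nuclear share of the RPKM total was far below the others in PFMP 3, at 1.06%. The causes were not tested.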

How the results depend on the processing

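The differences of the 43 named members in 215 comparisons with NSC were recomputed under each alternative, and no called value reversed. The number of nuclear members called in PFMP fell from 1 to 0 with a pseudocount of 0.1, with no filter, with quantile normalization and with only the compared populations in the model. It was 0 to 1 over the fits that left out a library or a batch, as it was for BNAP/GRP1, GRP2/MP3, GRP3 and the mean of the 4 progenitors. In BNAP/GRP1 it rose from 0 to 1 (Cox6b2) with every library set to the same RPKM total. With the replicate block (the batch in the model) it was 1 in BNAP/GRP1 (Atp5s), 1 in PFMP, and 3 for the mean of the progenitors. The block changed no other call. Among fits that were added once the data had been seen, the block without batch 3 gave 1 in BNAP/GRP1, 0 in PFMP and 0 for the mean, and the block without BNAP/GRP1 4 gave 2 in BNAP/GRP1 (Cox6b2 and Atp5s), 1 in GRP2/MP3, 1 in GRP3 and 3 for the mean. Mitochondrial members called and members called among progenitors were 0 in each alternative run. With the 50 largest genes of each library taken out of the denominator, the mitochondrial and nuclear shares became 24.6% and 6.94% for NSC, 31.2% and 4.94% for BNAP/GRP1, 34.1% and 7.85% for GRP2/MP3, 23.5% and 6.57% for GRP3, and 39.9% and 8.43% for PFMP. Adding the nuclear copies to the mitochondrial genes, also tried after the data had been seen, changed no call. The read depth is unknown, so low values such as those of Cox4i2 and Cox8b carry an error that could not be given.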
